A study of Mus musculus with 7 samples.

Results

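The small-RNA processing machinery is described here as 9 genes: Drosha, Dgcr8, Xpo5, Dicer1, Tarbp2, Prkra, Ago1, Ago2 and Ago3. They were picked by symbol from a count table of 55417 rows. Each symbol matched 1 row, and all 9 were among the 13329 genes that passed the filter on low counts. The study used RNA-seq of RAW264.7, a mouse macrophage-like cell line, to compare cells carrying hairpins against Dpep2, a membrane-bound dipeptidase, with control cells. There were 3 libraries with the control hairpin shNT, 2 with shDpep2.968 and 2 with shDpep2.759. The labels give no further treatment, time or delivery vector, and do not say whether lines were clones or pools. All 7 libraries carry a hairpin, so the comparisons below set one hairpin against another and none sets a hairpin against its absence.

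A short hairpin RNA silences its target through the cell's microRNA pathway. In that pathway, the Microprocessor (the nuclease Drosha with its RNA-binding partner Dgcr8) cuts hairpins out of long primary transcripts in the nucleus, and exportin-5, encoded by Xpo5, carries them to the cytoplasm. Dicer, encoded by Dicer1, removes the loop with the help of the double-stranded RNA-binding proteins Tarbp2 (TRBP) and Prkra (PACT), and an Argonaute protein keeps one strand and pairs it with messenger RNAs. Simple short hairpins enter at the export step, whereas hairpins embedded in a microRNA backbone also need the Microprocessor. The labels do not say which design was used.

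Libraries held 16548648 to 18401060 counts, and edgeR's common estimate of the variation between replicates was 13.8% of a gene's level. Levels are given as CPM, each count set against a TMM-scaled library total, and a gene is called where edgeR's quasi-likelihood test gave an adjusted p under 0.05 over all tested genes. The labels do not say that replicates came from separate cultures, so p-values measure the spread between these libraries, which may be technical. Of 10 macrophage markers, 9 were above 1 CPM in every library, the exception being Mertk, and the 5 T-cell and 4 epithelial markers together stayed under 1 CPM. The 4 neutrophil markers summed to 17.3 to 33.7 CPM with shNT, 34.1 to 50.1 CPM with shDpep2.968 and 99.9 to 237 CPM with shDpep2.759. Nearly all of that was S100a8, an alarmin that macrophages can also make, while Ly6g was at 0 in every library, and its part in the results below was not tested. A bulk level cannot tell fewer expressing cells from less RNA per cell. Dpep2 itself was at 55.6, 60.3 and 52.1 CPM with shNT, 22.4 and 17.9 CPM with shDpep2.968 and 24.9 and 19.5 CPM with shDpep2.759, so every Dpep2-hairpin library lay below every control (log2 fold change -1.41, SE 0.13, edgeR adjusted p = 8.07e-05).

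Of the 9 machinery genes, 2 were called when both Dpep2 hairpins were averaged against shNT. Dgcr8 rose and Prkra fell, each by less than 1.5-fold. Among all tested genes, 7.59% were called in this comparison (3.44% higher and 4.15% lower). The median log2 fold change of the machinery was 0.07 against 0.0025 for all tested genes, and the median absolute log2 fold change was 0.25 against 0.18. An unadjusted p under 0.05 was reached by 5 of the 9 (22.9% of all tested genes), and 4 of the 9 did not overlap between the 4 Dpep2-hairpin and 3 control libraries (18.5% of all tested genes). Xpo5, Dicer1, Ago2 and Ago3, at the export, cleavage and silencing steps, had averaged log2 fold changes between -0.11 and 0.10.

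**Figure D1:**
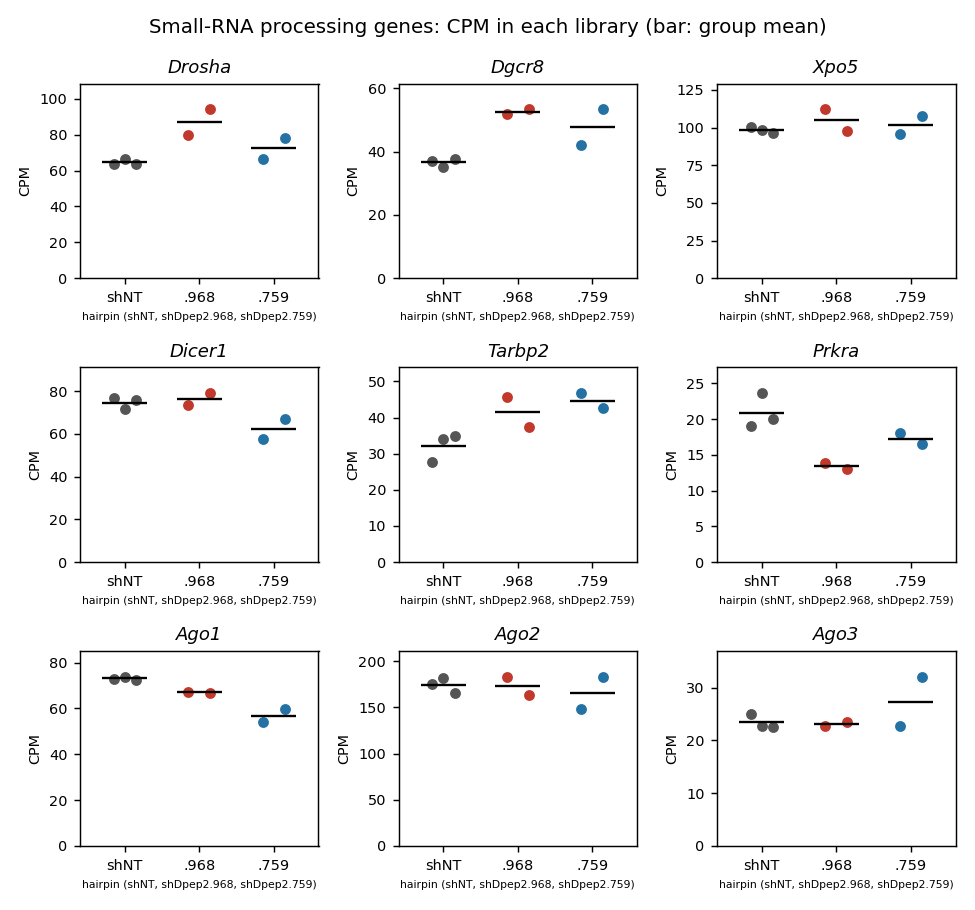
Level of each machinery gene in every library, in CPM, with 1 panel per gene and an axis starting at 0. Points are libraries of shNT, shDpep2.968 and shDpep2.759 and bars are group means. Dgcr8 and Tarbp2 lie above, and Prkra and Ago1 below, the control range in all 4 Dpep2-hairpin libraries.

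Of the 2 Microprocessor subunits, Dgcr8 was the one called. It is the RNA-binding subunit that recognises the base of a primary microRNA hairpin. Dgcr8 was at 36.9, 35.2 and 37.6 CPM with shNT, 51.8 and 53.5 CPM with shDpep2.968 and 42.0 and 53.4 CPM with shDpep2.759. All 4 Dpep2-hairpin libraries were above all controls, with shDpep2.759 replicate 1 the nearest to them. Dgcr8 rose 1.37-fold over both hairpins (log2 fold change 0.45, SE 0.11, 95% interval 0.21 to 0.70, edgeR adjusted p = 0.0281). With shDpep2.968 alone it rose 1.44-fold (edgeR adjusted p = 0.0376). That call was lost without any 1 of the shNT or shDpep2.968 libraries. With shDpep2.759 alone the log2 fold change was 0.38 and the gene was not called (adjusted p = 0.127). The averaged call was lost on leaving out any 1 library other than shDpep2.759 replicate 1, where the adjusted p was 0.00622. The highest adjusted p without 1 library was 0.163, without shNT replicate 2, while the log2 fold change stayed between 0.36 and 0.53.

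Drosha, the nuclease of the same complex, was at 63.6, 66.6 and 63.9 CPM with shNT, 79.7 and 94.3 CPM with shDpep2.968 and 66.6 and 78.1 CPM with shDpep2.759. Both shDpep2.968 libraries were above the controls, whereas shDpep2.759 replicate 1 was level with shNT replicate 2. The averaged log2 fold change was 0.29 (SE 0.10, 95% interval 0.07 to 0.52) and did not pass the test (edgeR adjusted p = 0.111). With shDpep2.968 it was 0.43 (adjusted p = 0.0633), which DESeq2 called (adjusted p = 0.0360), as did edgeR without either shDpep2.759 library. With shDpep2.759 it was 0.16 (edgeR adjusted p = 0.524). Relative to its partner, Dgcr8 had 58.1, 52.8 and 58.9 counts per 100 Drosha counts with shNT. It had 65.0 and 56.7 with shDpep2.968 and 63.0 and 68.3 with shDpep2.759. The shDpep2.968 replicate 2 value lay inside the control range, so the balance of the 2 subunits overlapped between groups.

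Dgcr8 is also a microRNA host. The Microprocessor is known to cut a hairpin within the Dgcr8 transcript itself, which links the level of that messenger RNA to the activity of the complex it encodes. The GENCODE M21 annotation places the genes of miR-1306 and miR-3618 inside Dgcr8 on the same strand, and the RefSeq mature sequences (GRCm38.p6) are shown because they are what this cut can release. Lower case letters are the mature RNA from 5′ to 3′ and capitals mark the seed, bases 2 to 8, by which Argonaute finds targets.
mmu-miR-1306-5p: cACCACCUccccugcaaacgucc
mmu-miR-1306-3p: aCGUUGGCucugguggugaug
mmu-miR-3618-5p: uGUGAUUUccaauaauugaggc
mmu-miR-3618-3p: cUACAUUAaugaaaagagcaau
No seed is shared among these sequences. Mature microRNAs were not measured in these libraries, and neither hairpin fragments nor cut Dgcr8 transcripts can be told from whole ones in counts per gene. Dgcr8 also shares 825 exonic bases, 10.7% of its exons, with Trmt2a, a tRNA methyltransferase gene on the opposite strand. Whether the counting used strand is not given in the sources used here, so reads from the overlap could be split between them. Trmt2a had 1321 to 1600 counts a library against 611 to 928 for Dgcr8, and its own averaged log2 fold change was -0.03 (edgeR adjusted p = 0.903).

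Xpo5, the export receptor for hairpin precursors, was at 101, 98.2 and 96.6 CPM with shNT, 112 and 97.9 CPM with shDpep2.968 and 95.9 and 108 CPM with shDpep2.759. Each Dpep2 hairpin had 1 library above the control range and 1 within or below it. Averaged over both hairpins the log2 fold change was 0.07 with a 95% interval of -0.14 to 0.28, and Xpo5 was not called (edgeR adjusted p = 0.721).

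Dicer1 was at 76.6, 71.5 and 75.7 CPM with shNT, 73.3 and 79.1 CPM with shDpep2.968 and 57.7 and 67.1 CPM with shDpep2.759. The shDpep2.968 libraries overlapped the controls and the shDpep2.759 libraries lay below them. The averaged log2 fold change was -0.11 (95% interval -0.33 to 0.10, edgeR adjusted p = 0.537). For shDpep2.759 alone it was -0.26 (95% interval -0.52 to 0.00052), which did not pass the test (adjusted p = 0.260).

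The 2 Dicer partners differed from the controls in opposite directions, and 1 of them passed the test. Prkra, which binds Dicer and is also an activator of the kinase PKR, was at 19.03, 23.7 and 19.9 CPM with shNT, 13.8 and 13.1 CPM with shDpep2.968 and 18.01 and 16.5 CPM with shDpep2.759. Every Dpep2-hairpin library was below every control, although shDpep2.759 replicate 1 was close to shNT replicate 1. Prkra fell to 72.9% of control over both hairpins (log2 fold change -0.46, SE 0.12, 95% interval -0.72 to -0.19, edgeR adjusted p = 0.0401). With shDpep2.968 alone it fell to 64.4% (adjusted p = 0.0298), and with shDpep2.759 alone the log2 fold change was -0.27 (adjusted p = 0.334). Its counts were 227 to 432 a library. The averaged call was lost without shNT replicate 2 or 3, without either shDpep2.968 library and without shDpep2.759 replicate 2, with a highest adjusted p of 0.230, while the log2 fold change stayed between -0.52 and -0.37. Under limma-voom the averaged adjusted p was 0.0544. The call with shDpep2.968 alone was lost without shNT replicate 2 or 3 or either shDpep2.968 library.

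Tarbp2, the other Dicer partner and an inhibitor of PKR, was at 27.7, 34.1 and 34.9 CPM with shNT, 45.7 and 37.5 CPM with shDpep2.968 and 46.9 and 42.5 CPM with shDpep2.759. All 4 Dpep2-hairpin libraries were above all controls, and shNT replicate 1 was the lowest. The averaged log2 fold change was 0.42 (SE 0.12, 95% interval 0.15 to 0.69) and narrowly missed the threshold (edgeR adjusted p = 0.0581). Among the alternatives, DESeq2 called Tarbp2 (adjusted p = 0.0296). EdgeR called it with every gene kept whatever its counts (0.0221), with offsets for GC content and length (0.00214) and without shDpep2.759 replicate 2 (0.0475).

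Because both partners are counted in the same library, their ratio needs no scaling between libraries. There were 0.686, 0.695 and 0.571 Prkra counts per Tarbp2 count with shNT, 0.302 and 0.349 with shDpep2.968 and 0.384 and 0.388 with shDpep2.759. The mean ratio was 0.651 ± 0.069 (SD, n = 3) with shNT, 0.325 ± 0.033 (SD, n = 2) with shDpep2.968 and 0.386 ± 0.0028 (SD, n = 2) with shDpep2.759. The ranges of control and Dpep2-hairpin libraries were separate. The log2 ratio was lower by 0.87 over 4 against 3 libraries (log2 difference -0.87), with a two-sided exact permutation p of 0.0571, which is the smallest that this design can give. For single hairpins the log2 differences were -0.998 for shDpep2.968 and -0.75 for shDpep2.759, each with an exact permutation p of 0.2, again the smallest possible. Since both genes had been seen to differ, this ratio restates their values in each library and is no separate evidence.

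**Figure D2:**
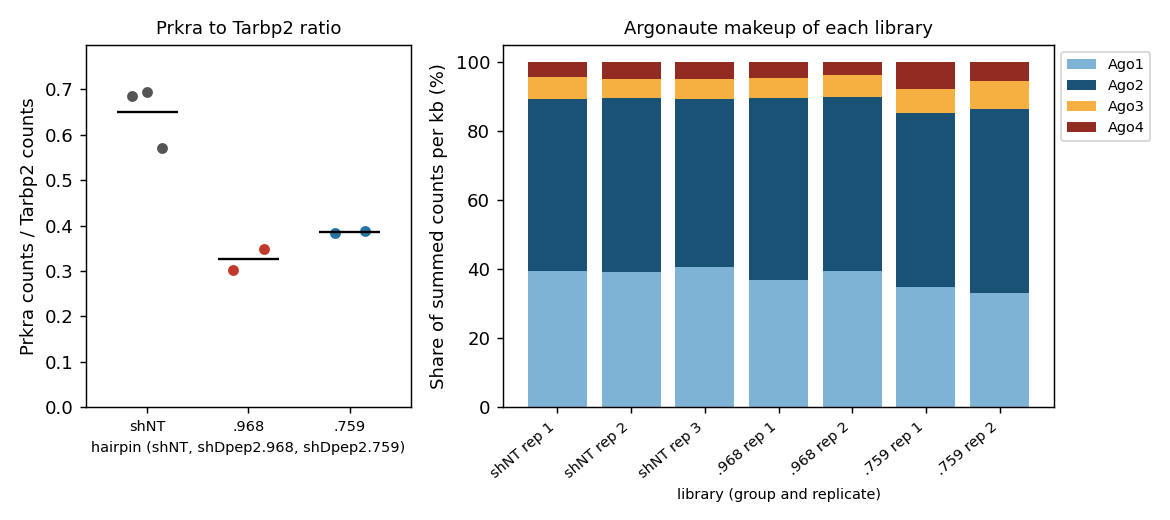
Left, Prkra counts divided by Tarbp2 counts in each library by hairpin, with group means as bars and an axis starting at 0. Right, the share of summed Ago1 to Ago4 counts per kilobase of longest transcript held by each gene, in percent, for every library. The Prkra to Tarbp2 ratio is 0.571 or more in every control and 0.388 or less in every Dpep2-hairpin library, and Ago2 holds 48.6% to 53.2% of the Argonaute total on that length.

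Among the Argonautes, Ago2 is the one best known for cutting fully paired targets, as a perfectly matched hairpin strand provides. Ago2 was at 176, 182 and 166 CPM with shNT, 183 and 164 CPM with shDpep2.968 and 148 and 183 CPM with shDpep2.759. Groups overlapped, with shDpep2.759 replicate 1 the lowest library. Over both hairpins the log2 fold change was -0.04 (95% interval -0.28 to 0.19, edgeR adjusted p = 0.853). Ago2 shares 219 exonic bases, 1.56% of its exons, with Chrac1, a chromatin remodelling subunit gene whose log2 fold change was 0.03 (adjusted p = 0.911).

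Ago1, which silences mainly without cutting, was at 72.9, 73.9 and 72.6 CPM with shNT, 67.4 and 66.8 CPM with shDpep2.968 and 53.9 and 59.7 CPM with shDpep2.759. All 4 Dpep2-hairpin libraries were below the narrow control range. The averaged log2 fold change was -0.25 (SE 0.09, 95% interval -0.45 to -0.04) and did not pass the test (edgeR adjusted p = 0.137). With shDpep2.759 alone it was -0.37 (adjusted p = 0.0907). Ago3, a further Argonaute, was at 25.0, 22.7 and 22.6 CPM with shNT. It was at 22.8 and 23.4 CPM with shDpep2.968 and 22.7 and 32.1 CPM with shDpep2.759. Only shDpep2.759 replicate 2 was above the controls, and Ago3 was not called (averaged log2 fold change 0.10, 95% interval -0.19 to 0.39, edgeR adjusted p = 0.700). Ago3, Ago1 and Ago4 are consecutive protein-coding genes on 1 strand in the mouse annotation (GRCm38.p6). Ago4, not one of the 9 genes, was at 5.8 to 11.1 CPM and was not called (log2 fold change 0.04, adjusted p = 0.906).

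Counted per kilobase of longest transcript, Ago2 made up 49.8%, 50.5% and 48.6% of summed Ago1 to Ago4 with shNT, 52.6% and 50.5% with shDpep2.968 and 50.3% and 53.2% with shDpep2.759. The mean share was 2.03 percentage points higher with the Dpep2 hairpins (exact permutation test, two-sided p = 0.171, 4 against 3). The smallest p that this permutation test can give is 0.0571, so it could not have passed 0.05. With the median transcript length Ago2 held 76.9% to 79.3% and the difference was 0.31 points. Ago1 held 39.1% to 40.6% with shNT, 37.0% and 39.3% with shDpep2.968 and 34.96% and 33.1% with shDpep2.759, with Ago3 and Ago4 making up the remainder.

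**Figure D3:**
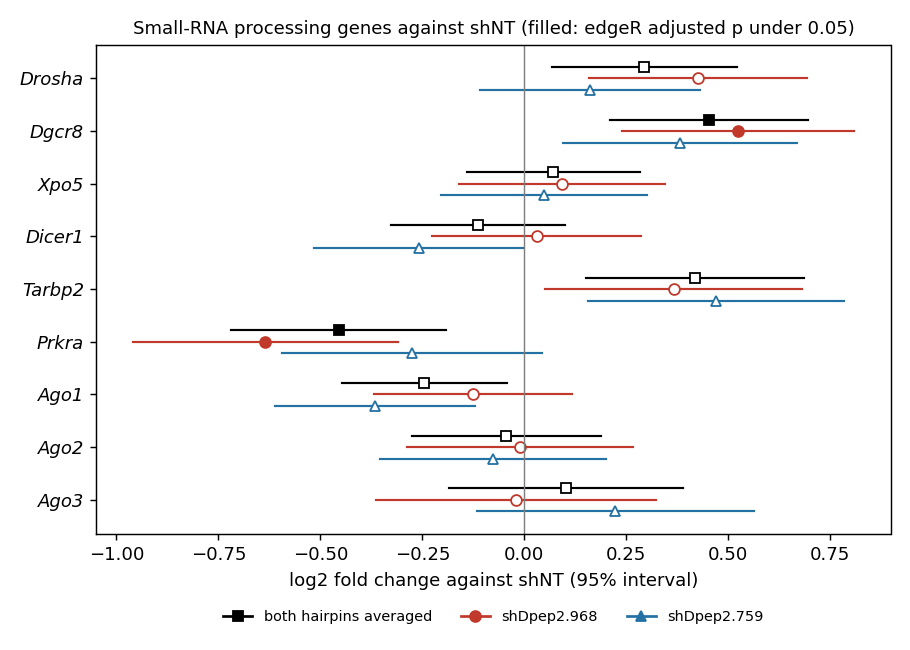
Log2 fold change against shNT with its 95% interval for each machinery gene, for both Dpep2 hairpins averaged, shDpep2.968 and shDpep2.759. Filled markers passed edgeR's adjusted p under 0.05, which holds for Dgcr8 and Prkra in the averaged and shDpep2.968 comparisons and for no gene with shDpep2.759.

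The hairpins were also read separately, and both comparisons use the same 3 control libraries. With shDpep2.968, 2 of the 9 genes were called, Dgcr8 and Prkra, where 5.25% of all tested genes were. With shDpep2.759, edgeR called 0 of the 9 against 4.73% of all tested genes, and 3 had an unadjusted p under 0.05 (19.3% of all tested genes did). DESeq2 and limma-voom also called 0 there, whereas 1 (Tarbp2) was called with no low-count filter and 3 (Dgcr8, Tarbp2 and Ago1) with GC and length offsets. Of all genes tested under those settings, 4.4% and 12.3% were called. A gene called with 1 hairpin and not the other is not thereby shown to differ between them, so the hairpins were compared directly. Between shDpep2.968 and shDpep2.759, edgeR called 0 of the 9 genes (0.84% of all tested genes), as did DESeq2 and limma-voom. Of the 9, 2 had an unadjusted p under 0.05, Dicer1 and Prkra (15% of all tested genes did). Dicer1 was 0.29 higher on the log2 scale with shDpep2.968 (95% interval 0.01 to 0.57, adjusted p = 0.321), and the log2 difference of Prkra was -0.36 (95% interval -0.71 to -0.01, adjusted p = 0.324). For Dgcr8 the difference was 0.14 (95% interval -0.17 to 0.46).

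The 9 genes spanned a wide range of transcript abundance. Averaged over the 7 libraries and given as CPM per kilobase of longest transcript, the level was highest for Xpo5 at 19.9 ± 1.2 (SD, n = 7), then Drosha at 16.0 ± 2.5, Tarbp2 at 14.1 ± 2.5 and Ago2 at 12.4 ± 0.96. Prkra followed at 10.98 ± 2.27, Dgcr8 at 10.3 ± 1.9, Ago1 at 9.23 ± 1.04 and Dicer1 at 7.27 ± 0.74, and Ago3 was lowest at 1.57 ± 0.22. The ranges of each pair of neighbours in this order overlapped except those of Dicer1 and Ago3. The order depended on the length used, since with the median transcript length Ago2 came highest. Prkra then had the lowest mean of the 9, at 15.3, and Ago3 was at 37.5.

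Genes whose levels followed the called machinery genes most closely over the 7 libraries were picked as the 3 highest Pearson correlations of log2 CPM among 9527 candidates. For Dgcr8 these were Dnmt3a, a DNA methyltransferase (r = 0.996), Kmt5b, a histone methyltransferase (r = 0.988), and Cpeb2, a messenger RNA-binding protein (r = 0.987). For Prkra they were Trappc9, a vesicle trafficking subunit (r = 0.995), Rap2a, a small GTPase (r = 0.985), and Gadd45a, a stress-induced gene (r = 0.980). These are the tops of a long ranking over few libraries that share their group structure, and are given as a description.

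Other genes of the pathway were read from 6 lists. These lists were chosen with earlier results of these data known, so their shares beside those of all genes are descriptions. The 18 nuclear processing cofactors held 2 that rose and 0 that fell (3.44% and 4.15% of all tested genes), and their median log2 fold change was 0.19. Of the 18, 16 had a positive log2 fold change (50.3% of all tested genes did) and 8 lay above the control range in all 4 Dpep2-hairpin libraries (9.03% of all tested genes did). Srrt (ARS2), which joins the nuclear cap-binding complex to primary microRNA processing, was at 153, 156 and 148 CPM with shNT, 245 and 217 CPM with shDpep2.968 and 222 and 218 CPM with shDpep2.759. These groups were far apart, and Srrt rose (log2 fold change 0.57, SE 0.10, edgeR adjusted p = 0.00417). The call was kept without each library in turn. Ncbp2, the cap-binding subunit of that complex, was at 64.7, 60.1 and 65.1 CPM with shNT and at 80.9 to 88.9 CPM in the Dpep2-hairpin libraries. Ncbp2 rose too (log2 fold change 0.41, adjusted p = 0.0204), a call lost without shNT replicate 2 or 3 or shDpep2.968 replicate 2. The count for this list was 6 under DESeq2, where 8.76% of all genes were called, and 5 with GC and length offsets (15.8%).

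**Figure D4:**
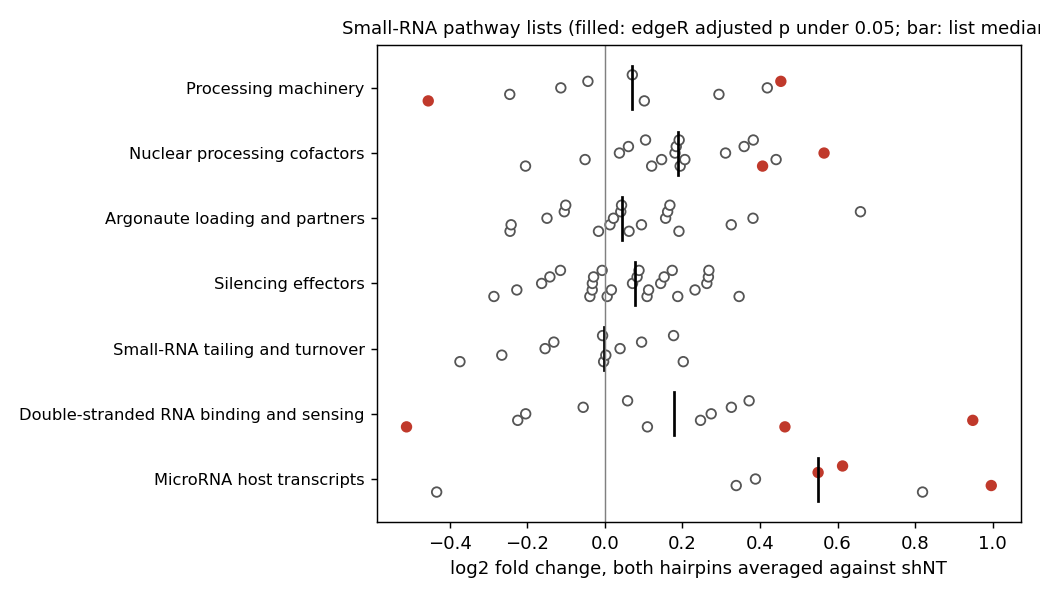
Averaged log2 fold change of each tested gene in the machinery and the 6 pathway lists, 1 point per gene, with the list median as a bar. Filled points passed edgeR's adjusted p under 0.05. The nuclear cofactors lie mostly above 0, with a median of 0.19. The Argonaute partners, the silencing effectors (median 0.08) and the tailing and turnover genes hold no filled point.

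Argonaute loading factors and partners, 19 genes, held 0 called by edgeR (7.59% of all tested genes) and 2 called by DESeq2 (8.76%). Of the 19, 4 had an unadjusted p under 0.05 (22.9% of all tested genes), and the median log2 fold change was 0.04. The smallest p-values were those of Fmr1, an RNA-binding translational regulator (log2 fold change 0.66, edgeR adjusted p = 0.0637), and Hspa8, the chaperone that helps load Argonaute (0.38, adjusted p = 0.0645). Both were called by DESeq2. Without shDpep2.759 replicate 1 edgeR called both as well, and without shNT replicate 1 it called Fmr1.

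Silencing effectors were 26 genes that act with or downstream of Argonaute, among them deadenylation and decapping factors. They held 0 called by edgeR or DESeq2 (7.59% and 8.76% of all tested genes). Their median was 0.08, and 2 had an unadjusted p under 0.05 (22.9% of all tested genes did). Those were the scaffolds Tnrc6a (log2 fold change 0.35, edgeR adjusted p = 0.101) and Tnrc6c (-0.29, adjusted p = 0.166), which bind Argonaute directly. Tnrc6a was called without shDpep2.759 replicate 1 (adjusted p = 0.0392). Of 14 genes for small-RNA tailing and turnover, Lin28a, Lin28b and Trim71 had at most 6 counts in any library and were not tested. The other 11 held 0 called by edgeR or DESeq2 (again against 7.59% and 8.76%). They held 2 with an unadjusted p under 0.05 (again against 22.9%), with a median of -0.0031. The smallest p-values were those of the exonuclease Dis3l2 (log2 fold change -0.37, edgeR adjusted p = 0.0872) and the deadenylase Parn (-0.27, adjusted p = 0.211). With GC and length offsets 3 of the 11 were called, Dis3l2 among them, where 15.8% of all tested genes were.

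Genes that bind or sense double-stranded RNA, 12 in all, held 2 that rose and 1 that fell (3.44% and 4.15% of all tested genes), with a median log2 fold change of 0.18. Tlr3, the endosomal receptor for double-stranded RNA, was at 13.1, 11.2 and 10.2 CPM with shNT, 20.2 and 30.9 CPM with shDpep2.968 and 17.1 and 21.6 CPM with shDpep2.759. Every Dpep2-hairpin library was above every control, and Tlr3 rose (log2 fold change 0.95, SE 0.17, edgeR adjusted p = 0.00450), a call kept without each library in turn. Eif2ak2, which encodes the kinase PKR that Prkra activates and Tarbp2 inhibits, was at 163, 122 and 141 CPM with shNT and at 173 to 218 CPM with the Dpep2 hairpins. It rose (log2 fold change 0.46, adjusted p = 0.0391), but not without shNT replicate 2 or 3, shDpep2.968 replicate 2 or shDpep2.759 replicate 2, and not under limma-voom or with all hairpin libraries as 1 group. Strbp, a double-stranded RNA-binding protein, was at 45.0, 41.9 and 42.7 CPM with shNT, 29.0 and 35.5 CPM with shDpep2.968 and 28.4 and 28.5 CPM with shDpep2.759. Strbp fell (log2 fold change -0.51, adjusted p = 0.0138), a call lost without shNT replicate 2 or 3.

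The last list holds long transcripts from which the Microprocessor cuts microRNAs. Of 13, 6 (Mir124a-1hg, Mir9-3hg, H19, Meg3, Mirg and Rian) were too low to test. The other 7 held 3 that rose and 0 that fell (again against 3.44% and 4.15%), with a median log2 fold change of 0.55. The mature microRNAs of the 3 called hosts are printed because they are the products the machinery would make from these transcripts, again with the seed in capitals and from RefSeq. From Mir142hg come the arms of miR-142, which is typical of blood cells.
mmu-miR-142a-5p: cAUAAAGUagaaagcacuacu
mmu-miR-142a-3p: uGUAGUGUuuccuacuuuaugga
From Mir22hg come the arms of miR-22.
mmu-miR-22-5p: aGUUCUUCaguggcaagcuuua
mmu-miR-22-3p: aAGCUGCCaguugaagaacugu
Mir99ahg hosts a cluster of miR-99a, let-7c and miR-125b, shown by their 5p arms.
mmu-miR-99a-5p: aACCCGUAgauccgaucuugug
mmu-let-7c-5p: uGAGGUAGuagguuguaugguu
mmu-miR-125b-5p: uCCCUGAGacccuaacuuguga
No seed is shared among these mature sequences. To show what Drosha and Dicer cut, the annotated hairpins of miR-22 and miR-142 follow whole, with both mature arms in capitals. Drosha cuts at the outer ends of the arms and Dicer at the loop between them.
Mir22 hairpin: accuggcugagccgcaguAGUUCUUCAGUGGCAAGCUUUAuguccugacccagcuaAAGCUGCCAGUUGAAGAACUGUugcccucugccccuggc
Mir142 hairpin: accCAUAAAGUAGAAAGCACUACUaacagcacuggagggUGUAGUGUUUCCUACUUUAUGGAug

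Mir142hg was at 10.1, 8.60 and 9.50 CPM with shNT, 14.4 and 13.8 CPM with shDpep2.968 and 15.6 and 13.6 CPM with shDpep2.759. Groups were well apart, and Mir142hg rose (log2 fold change 0.61, SE 0.13, edgeR adjusted p = 0.0131), a call lost without shNT replicate 2 or 3. Mir22hg was at 9.18, 8.22 and 8.05 CPM with shNT, 9.77 and 12.8 CPM with shDpep2.968 and 12.5 and 14.9 CPM with shDpep2.759. The shDpep2.968 replicate 1 library was just above the controls, and Mir22hg rose (log2 fold change 0.55, SE 0.15, adjusted p = 0.0416). Mir99ahg was the lowest, at 1.81, 1.04 and 1.45 CPM with shNT, 2.95 and 4.55 CPM with shDpep2.968 and 1.96 and 2.40 CPM with shDpep2.759. It lay nearer to the controls with shDpep2.759 and rose on average (log2 fold change 1.00, SE 0.28, adjusted p = 0.0492). Leaving out any 1 of shNT replicate 2 or 3, shDpep2.968 replicate 2 or shDpep2.759 replicate 2 ended the call for Mir22hg and for Mir99ahg, and leaving out shNT replicate 1 also ended it for Mir22hg. Of the 3, limma-voom called Mir142hg alone, as did the fit with all hairpin libraries as 1 group. Mir99ahg was also not called by DESeq2 (adjusted p = 0.0552) or with library size as the sole scaling (edgeR adjusted p = 0.0507). A host transcript's level here is that of RNA assigned to the gene. By that level, a primary transcript that is cut more slowly cannot be told from one that is made faster.

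**Figure D5:**
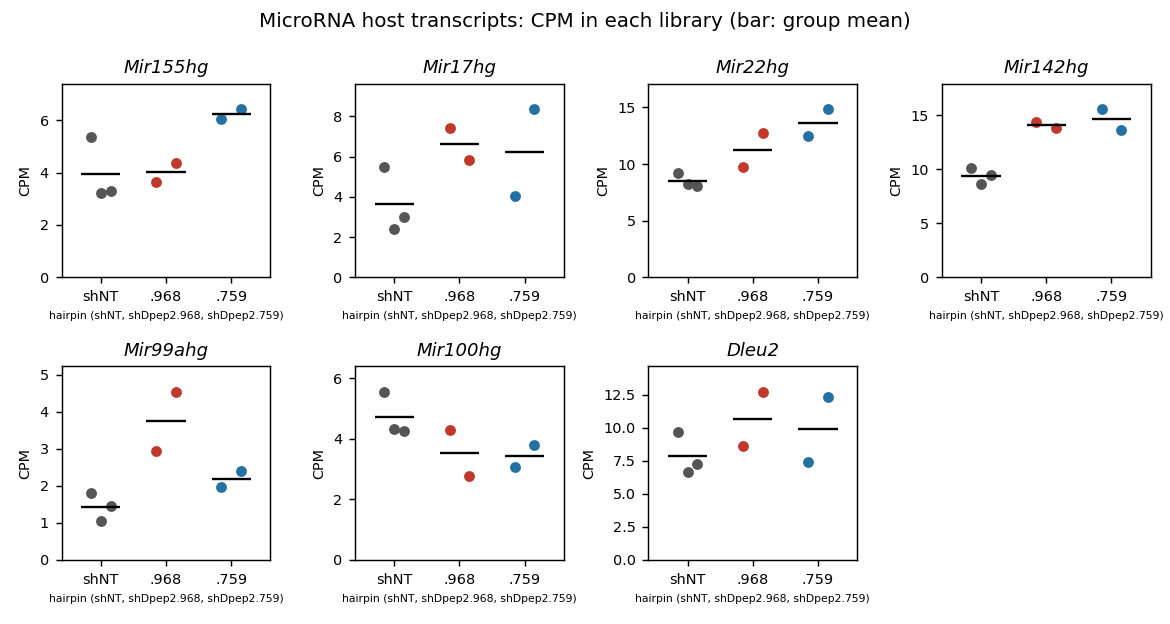
Level of each tested microRNA host transcript in every library, in CPM, with 1 panel per gene, an axis starting at 0 and bars for group means. Mir142hg, Mir22hg and Mir99ahg lie above the control range in all 4 Dpep2-hairpin libraries, and the remaining panels overlap.

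Fold changes of all genes ran with the GC content of their transcripts, with a Spearman correlation across 12757 genes of -0.25 for both hairpins averaged, -0.35 for shDpep2.968 and -0.09 for shDpep2.759. Genes are not independent replicates, and the correlation is a description. With offsets for GC content and length, 4 of the 9 machinery genes were called in the averaged comparison: Dgcr8, Prkra, Tarbp2 and Drosha (log2 fold change 0.35, edgeR adjusted p = 0.0181). The same offsets raised the share called among all tested genes from 7.59% to 15.8%. The direction of Dgcr8, Prkra, Tarbp2, Drosha and Ago1 in the averaged comparison was the same under every alternative run.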

How the data were processed

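RNA of 7 RAW264.7 libraries was sequenced as stranded total RNA in paired reads, per the labels' protocols. The deposited table holds whole-number counts per gene symbol, used as the authors deposited them. Salmon, Trim Galore and the human build hg38 are named in the submitters' processing notes, with no version or role, although the symbols are mouse. Neither the strand setting nor any rounding of estimated counts is stated in the labels. Annotation and transcript lengths came from GENCODE M21 and RefSeq (GRCm38.p6), and no coordinates are printed.

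Counts were fitted with edgeR 4.0.16 (R 4.3.3; TMM, filterByExpr, 3 groups, robust quasi-likelihood, Benjamini-Hochberg adjustment over 13329 genes). The alternatives were DESeq2 1.42.0, limma 3.58.1 (voom), other scalings and filters, GC and length offsets, a replicate block, other groupings and each library left out. The fit was also run on simulated counts. Those had no GC trend and equal effects of both hairpins, so they do not bear on these features of the data. No 2 libraries were identical.

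Members and lists were chosen with earlier results of these data known. Named genes are the 9 members, Dpep2, up to 4 called genes of each list with the smallest p (or the 2 with the smallest p where none was called), and the 3 genes most correlated with each called member. Other genes are named for an overlap or a position on the genome. B-cell, fibroblast and endothelial markers summed to at most 3.25, 2.36 and 6.71 CPM in any library. Transcript GC values covered 95.7% of tested genes.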

Additional observations from a re-analysis of the deposited data

How the results depend on the processing

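Both machinery calls lay close to the threshold. The count called of the 9 was 2 over both hairpins (7.59% of all tested genes). It became 1 under limma-voom (6.49%) and 4 with GC and length offsets (15.8%). It was 0 with all hairpin libraries as 1 group, and ranged from 0 to 2 when each library was left out in turn. Under DESeq2 and with no low-count filter, Tarbp2 was called besides Dgcr8 and Prkra. With shDpep2.968 the count of 2 (5.25% of all tested genes) became 1 under limma-voom (3.79%) and 4 with GC and length offsets (12.5%). It ranged from 0 to 3 when each library was left out. Drosha was added under DESeq2, with no low-count filter and in a fit of the shDpep2.968 and shNT libraries alone. With shDpep2.759 the count was 0 (4.73% of all tested genes). It became 1 with no low-count filter (4.4%) and 3 with GC and length offsets (12.3%). Between the hairpins it was 0 throughout. Dpep2 kept its call under every alternative (log2 fold change -1.50 to -1.32). The Prkra to Tarbp2 log2 difference ranged from -0.96 to -0.80, and the Ago2 share difference from 1.51 to 2.48 points, when each library was left out. A total of 1012 genes was called over both hairpins, which became 2106 with GC and length offsets, 1590 with no filter, 551 with 1 hairpin group, and 356, 321 and 492 without shNT replicate 2, shNT replicate 3 and shDpep2.968 replicate 2. Over all settings the total ranged from 69 to 1672 around 700 with shDpep2.968, from 253 to 1644 around 630 with shDpep2.759 and from 6 to 1070 around 112 between the hairpins. List counts, whose alternatives were added after seeing the data, ranged from 0 to 6 for nuclear cofactors, 0 to 2 for Argonaute partners, 0 to 1 for silencing effectors, 0 to 3 for tailing and turnover, 1 to 6 for double-stranded RNA genes and 0 to 4 for microRNA hosts. Over the same settings, 2.43% (without shNT replicate 3) to 15.8% (GC and length offsets) of all tested genes were called over both hairpins. The cause of these changes was not tested. Leaving out a library also leaves fewer samples.

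Same-numbered libraries of different groups deviated with correlations of -0.23 to 0.07, and differently numbered ones with -0.07 to 0.23. Deviations were taken within groups, so the 2 libraries of each hairpin mirrored each other and these values are not independent. They cannot settle whether replicate numbers pair the samples. With the replicate number as a block in the fit, 0 machinery genes were called over both hairpins and 0 with shDpep2.968. Of all tested genes, 404 were called over both hairpins. Replicate 3 exists only for shNT, so the block takes up that library and leaves fewer degrees of freedom. An effect of pairing was not tested apart from that. Of the list genes called over both hairpins, Tlr3 kept its call with the block, and Srrt (adjusted p = 0.0729), Ncbp2, Strbp, Eif2ak2, Mir142hg, Mir22hg and Mir99ahg lost it. The block together with GC offsets was not run.

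With the median transcript length, levels per kilobase became 83.1 for Drosha, 44.0 for Dgcr8, 32.2 for Xpo5, 19.7 for Dicer1, 44.4 for Tarbp2, 15.3 for Prkra, 40.1 for Ago1, 278 for Ago2 and 37.5 for Ago3.

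Reversed directions were limited to log2 fold changes that were not called. Over both hairpins, Ago3 became -0.035 with GC and length offsets. With shDpep2.968, Dicer1 became -0.018 with those offsets, and Ago2 became 0.00072 with RLE size factors and under DESeq2. The other reversals came from leaving out 1 library. Over both hairpins, the lowest and highest values were then -0.13 and 0.029 for Ago2 and -0.037 and 0.22 for Ago3. With shDpep2.968 they were -0.00053 and 0.19 for Xpo5, -0.027 and 0.093 for Dicer1, -0.085 and 0.066 for Ago2 and -0.046 and 0.028 for Ago3. With shDpep2.759 they were -0.044 and 0.13 for Xpo5, -0.25 and 0.068 for Ago2 and -0.054 and 0.45 for Ago3. Between the hairpins they were -0.019 and 0.33 for Dgcr8, -0.044 and 0.14 for Xpo5, -0.24 and 0.032 for Tarbp2, -0.079 and 0.24 for Ago2 and -0.47 and 0.036 for Ago3. Over all named genes and settings, 63 values lost a call and 28 gained one.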
